A study of Salvia dorisiana with 6 samples.

Results

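Early leaf expansion in *Salvia dorisiana* was described by setting the transcript levels in leaves 3–10 cm against those in leaves <3 cm. All 85 of the 85 transcripts in the deposited table were included, and 2 of the 6 libraries carry the comparison. The plants were propagated by cuttings and grew in a greenhouse, and no treatment or genotype is named for them. The leaf libraries are labelled by leaf size only, and whether they share a plant or a harvest is not stated. Leaves >10 cm, stem, roots and trichomes make up the other 4 libraries. The trichomes were taken from apical buds and from young leaves in a size range that overlaps both compared sizes. There is 1 library per tissue, so the values have no replicate check, no test between leaf sizes was made and every ratio describes these libraries. Levels are given as RPKM, the reads on a transcript scaled by its length and by the reads mapped in its library, and a ratio is log2 of RPKM + 1 in leaves 3–10 cm over RPKM + 1 in leaves <3 cm.

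*S. dorisiana* is a sage of the mint family whose leaves carry glandular trichomes, hairs with secretory heads that make and store terpenoids and other lipophilic compounds. In mints and related plants these glands are initiated and fill largely while a leaf is young, and the leaf then grows between them. The study sought genes for methylperillate, a methylated monoterpene acid made from limonene. Its authors kept a transcript when it was abundant in trichomes and when its profile over the tissues followed both the limonene synthase and the pathway metabolites. Both leaf libraries took part in that choice, so the direction seen over the list is not independent evidence. Genes chosen for another profile, among them markers of leaf mesophyll or epidermis, were not analysed here, and the labelled tissues could not be checked against such markers. In whole leaves, fewer gland cells, less RNA per gland cell and a change in RNA from other cells cannot be told apart.

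Most listed transcripts were lower in leaves 3–10 cm, and most of them moderately so. The ratio was below 0 for 76 transcripts and above 0 for 9. At least 2-fold lower were 17 of 85, or 20%, and at least 2-fold higher were 0, or 0%. With a smaller step of 1.5-fold, 41 transcripts (48.2%) were lower and 0 (0%) were higher. The median ratio was −0.56, the lower quartile was −0.87 and the upper quartile −0.31, and the extremes were −3.16 and 0.47. A typical transcript therefore stood in leaves 3–10 cm at 67.6% of its RPKM in leaves <3 cm. The 2-fold line ran through a continuous range, since clust2795 just inside it had a ratio of −1.01 and clust3980 just outside it had −0.97.

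The 85 transcripts together took 2.72% of the mapped fragments in leaves 3–10 cm (95% interval 2.72 to 2.73) and 4.18% in leaves <3 cm (4.17 to 4.19). Fragments are whole read pairs recovered from the RPKM values, and the intervals are exact binomial ones that cover counting error only. The library of leaves 3–10 cm held 19415968 mapped fragments and that of leaves <3 cm 14854782. The thinnest transcript had 122 fragments in leaves 3–10 cm and 639 in leaves <3 cm, and the median was 3148 in leaves 3–10 cm and 3826 in leaves <3 cm. Beyond counting error, 75 transcripts were lower and 6 higher, and the interval of the ratio of RPKM values held 1 for the other 4. Such intervals say nothing about the spread between plants. Of the 10 most abundant listed transcripts in each leaf library, 9 were the same.

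**Figure D1:**
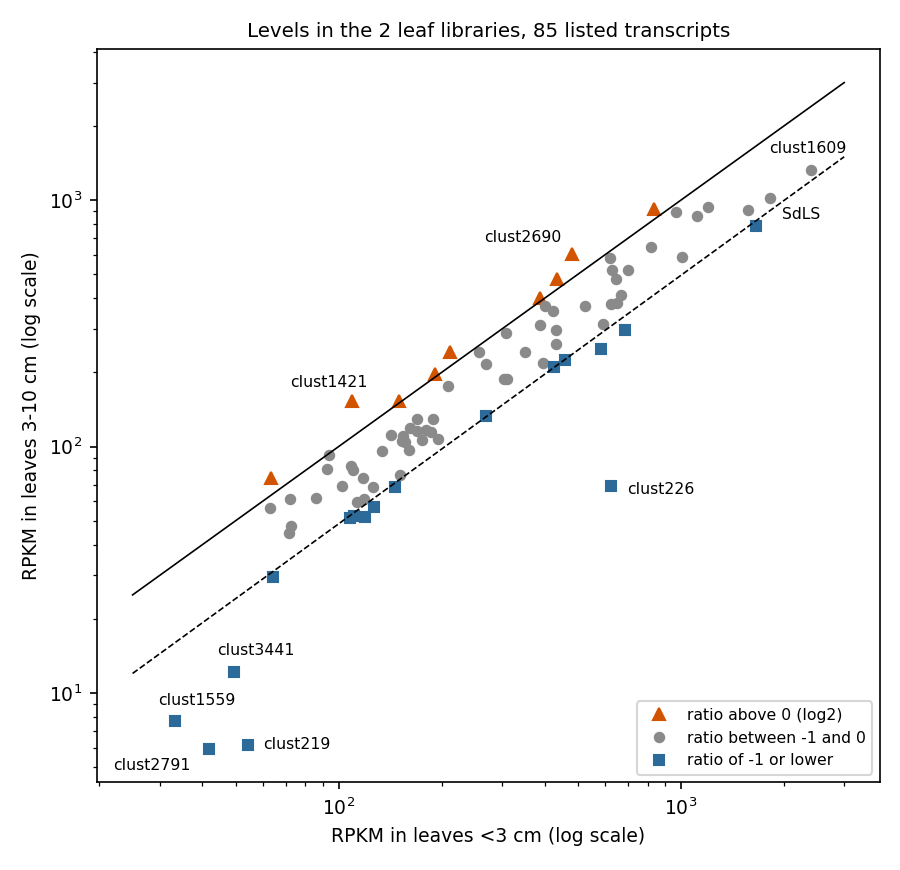
RPKM in leaves 3–10 cm (vertical, log scale) against RPKM in leaves <3 cm (horizontal, log scale), 1 point per listed transcript. The solid line marks equal levels and the dashed line a 2-fold lower value of RPKM + 1, and 5 transcripts, clust226, clust219, clust2791, clust1559 and clust3441, lie far below the others while 9 triangles lie above the solid line.

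The 4 enzymes assigned to the methylperillate route were all lower in leaves 3–10 cm, as were 76 of the 85 listed. Their median ratio was −0.95, and 2 of the 4 were at least 2-fold lower, against 20% of the list. Of these, SdPAOMT missed the 2-fold line at −0.94 both with a pseudocount of 10 RPKM and on the scaling to mitochondrial transcripts described below. Limonene synthase, which closes geranyl diphosphate into limonene, is represented by the cluster clust603. The table labels that cluster both SdLS and SdEuS, a eucalyptol synthase, so its value belongs to the pair. It was at 1016 RPKM in leaves 3–10 cm and 1817 RPKM in leaves <3 cm, or 55.9% (interval 55.1 to 56.7), a ratio of −0.84. Leaves >10 cm held 323 RPKM of it, trichomes 22369, stem 428 and roots 455. SdL7H (clust1545), the cytochrome P450 that hydroxylates limonene to perillyl alcohol, was at 589 RPKM in leaves 3–10 cm and 1007 RPKM in leaves <3 cm, a ratio of −0.77. Its other levels were 213 RPKM in leaves >10 cm, 9289.8 in trichomes, 185 in stem and 13.1 in roots.

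The later enzymes of the route were scarcer and had lower ratios. SdPOHDH (clust2459), the dehydrogenase that oxidizes perillyl alcohol to the aldehyde, was at 51.9 RPKM in leaves 3–10 cm and 119 RPKM in leaves <3 cm, a ratio of −1.18. It had 20.3 RPKM in leaves >10 cm, 1009 in trichomes, 19.7 in stem and 5.76 in roots. The methyltransferase for perillic acid, SdPAOMT (clust2833), was at 51.4 RPKM in leaves 3–10 cm and 108 RPKM in leaves <3 cm, a ratio of −1.05. Leaves >10 cm had 13.8 RPKM of SdPAOMT, trichomes 1557, stem 14.4 and roots 105. Expressed as a share of the limonene synthase cluster in the same library, SdL7H was at 58.0% in leaves 3–10 cm and 55.4% in leaves <3 cm. SdPOHDH was at 5.11% of that cluster in leaves 3–10 cm and 6.55% in leaves <3 cm, and SdPAOMT was at 5.06% in leaves 3–10 cm and 5.93% in leaves <3 cm. Counting intervals of SdPOHDH (40.5 to 46.9% of its level in leaves <3 cm) and SdPAOMT (44.1 to 51.5%) lay below that of the limonene synthase cluster, and the interval of SdL7H (57.3 to 59.6%) lay above it.

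Measured against the limonene synthase cluster, the list split unevenly. The interval of 20 transcripts lay wholly below that of clust603, that of 58 wholly above it, and 6 overlapped it. More of the listed transcripts thus kept a larger share of their young-leaf level than the limonene synthase cluster did.

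**Figure D2:**
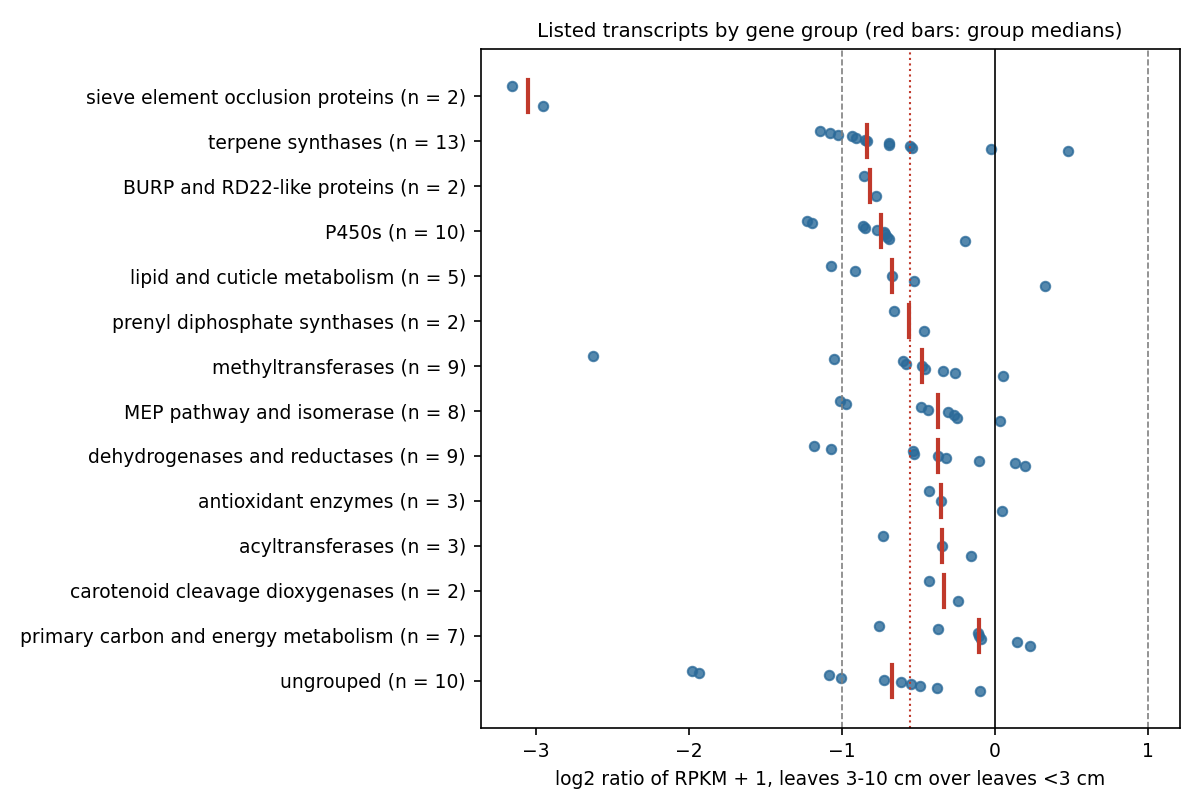
The log2 ratio of RPKM + 1, leaves 3–10 cm over leaves <3 cm (horizontal), for each transcript by gene group (rows, ordered by median, with the ungrouped transcripts last), with red bars at the group medians, a dotted line at the median of the whole list (−0.56) and dashed lines at 2-fold. The sieve element occlusion pair stands apart at a median of −3.06, and primary carbon and energy metabolism is nearest to 0 at −0.10.

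The terpene synthases, which turn prenyl diphosphates into the carbon skeletons of terpenes, had a lower median ratio than the list as a whole. Of the 13, 12 were lower and 3 at least 2-fold lower, against 76 of 85 and 20% over the list. The median ratio was −0.84 beside −0.56 for all 85. The group median is the ratio of clust603 itself, the cluster of the limonene synthase that guided the choice of the list. All 13 carry the C-terminal terpene synthase domain of Pfam. The 3 closest to diterpene synthases had a median of −1.03. Among them clust874, matched to kaurene, miltiradiene and sclareol synthases, was at 56.9 RPKM in leaves 3–10 cm and 127 RPKM in leaves <3 cm. The copalyl diphosphate synthase clust70, of the class that makes the first cyclic diterpene precursor, was at 224 RPKM in leaves 3–10 cm and 458 RPKM in leaves <3 cm, a ratio of −1.03. The third, clust927, was at 59.8 RPKM in leaves 3–10 cm and 113 RPKM in leaves <3 cm, just short of 2-fold at −0.91.

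Sesquiterpene synthases, named by their closest BLAST hits, ranged more widely than any other class of terpene synthase in the list. The 7 had ratios of −1.08 to 0.47 and a median of −0.69. At the low end clust1093, matched to germacrene D and caryophyllene synthases, was at 68.8 RPKM in leaves 3–10 cm and 146 RPKM in leaves <3 cm. At the high end clust1421, also matched to germacrene D synthase, had the highest ratio of the 85. It was at 153 RPKM in leaves 3–10 cm and 109.5 RPKM in leaves <3 cm, or 139% (interval 133 to 146). Its levels elsewhere were 163 RPKM in leaves >10 cm, 1688 in trichomes, 96.4 in stem and 8.51 in roots. A further germacrene D synthase, clust1129, was the most abundant of the class in both leaf sizes, at 413 RPKM in leaves 3–10 cm and 669.5 RPKM in leaves <3 cm. The caryophyllene synthase match clust1050 was at 219 RPKM in leaves 3–10 cm and 395 RPKM in leaves <3 cm, a ratio of −0.85. The other members, clust1244, clust2225 and clust3938, had ratios of −0.69, −0.56 and −0.54. Transcripts with the same closest hit were therefore found on both sides of 0.

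Of the remaining monoterpene-type synthases, clust629 carries the label SdPS, a beta-pinene synthase, a label that is uncertain because the sources used here disagree on which sequence it names. It was at 61.5 RPKM in leaves 3–10 cm and 118 RPKM in leaves <3 cm, a ratio of −0.93. Further levels of clust629 were 27.2 RPKM in leaves >10 cm, 1368 in trichomes, 43.2 in stem and 7.48 in roots. SdSaS (clust1265), which the study assayed as a sabinene synthase and whose closest hit is a bergamotene synthase, was at 92.1 RPKM in leaves 3–10 cm and 94.0 RPKM in leaves <3 cm. Its ratio of −0.03 could not be set apart from 0 by counting error and turned positive on another scaling, described below. It had 105 RPKM in leaves >10 cm, 1391 in trichomes, 29.9 in stem and 0.663 in roots.

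All 10 cytochrome P450 transcripts were lower, as were 76 of the 85 listed, and 2 of them at least 2-fold, the same share as the 20% of the list. Their median ratio was −0.75. These enzymes oxidize terpene skeletons at chosen carbons. The most abundant of all 85 in both leaf libraries was clust1609, whose closest hit is ferruginol synthase, a P450 of diterpene metabolism. It was at 1326 RPKM in leaves 3–10 cm and 2394 RPKM in leaves <3 cm, a ratio of −0.85, and at 578 in leaves >10 cm, 16299 in trichomes, 391.7 in stem and 750.1 in roots. The 4 P450s closest to ferruginol synthase had ratios of −1.20 to −0.72. Its relatives clust1540 and clust1600, with −0.72 each, both stood at 60.5% of their level in leaves <3 cm. The lowest of the 4, clust1568, was at 298 RPKM in leaves 3–10 cm and 685 RPKM in leaves <3 cm. It had 67.8 RPKM in leaves >10 cm, 7808 in trichomes, 91.1 in stem and 152 in roots.

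Pairs of P450s with the same closest hit could lie far apart. Of the pair closest to CYP71AT89, clust1523 was at 248 RPKM in leaves 3–10 cm and 583 RPKM in leaves <3 cm, which is 42.5% (interval 41.3 to 43.7). The other member, clust1660, was at 107 RPKM in leaves 3–10 cm and 175 RPKM in leaves <3 cm, which is 61.0% (58.1 to 64.0). In the remaining libraries clust1523 was at 52.2 RPKM in leaves >10 cm, 3193 in trichomes, 14.5 in stem and 5.94 in roots. Among the 3 closest to menthofuran synthase, a mint P450 that acts on pulegone, SdL7H and clust3466 had ratios of −0.77 and −0.70. The third, clust4348, had −0.19, the P450 nearest to 0, at 80.9 RPKM in leaves 3–10 cm and 92.7 RPKM in leaves <3 cm. Reads of close relatives may have been shared between such transcripts, because the authors merged similar reading frames and let a read map to several places. The part of shared reads in these ratios was not tested.

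The methylerythritol phosphate (MEP) pathway supplies the precursors of monoterpenes and diterpenes in plastids, and most of its transcripts had ratios nearer to 0 than the median of the terpene synthases. Of 8 transcripts, counting the isomerase that follows it, 7 were lower and 1 at least 2-fold lower, against 76 of 85 and 20% over the list, with a median ratio of −0.37 beside −0.56. The entry enzyme 1-deoxy-D-xylulose 5-phosphate synthase (DXS, clust158) was the lowest, at 210.0 RPKM in leaves 3–10 cm and 425 RPKM in leaves <3 cm, a ratio of −1.01 that became −0.98 with a pseudocount of 10 RPKM and −0.90 on the mitochondrial scaling. The isopentenyl diphosphate isomerase clust3980, which balances the C5 units at the exit, was at 76.5 RPKM in leaves 3–10 cm and 151 RPKM in leaves <3 cm. Between these ends the ratios were nearer to 0.

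The second step, by the reductoisomerase DXR, is covered by the transcripts clust5857 and clust1689. The first, named DXR by its closest hit, was at 153 RPKM in leaves 3–10 cm and 149.9 RPKM in leaves <3 cm, a ratio of 0.03 whose counting interval included equality. It had 297 RPKM in leaves >10 cm, 1374 in trichomes, 73.6 in stem and 276 in roots. The annotation of clust1689 is contradictory, since its closest hit is a DXS and its Pfam domains are those of DXR, and it was at 217 RPKM in leaves 3–10 cm and 269 RPKM in leaves <3 cm. The kinase (clust2269) and the cyclodiphosphate synthase (clust4785) had ratios of −0.48 and −0.25. The last enzymes of the pathway were the most abundant. The hydroxymethylbutenyl diphosphate synthase clust133 was at 520.2 RPKM in leaves 3–10 cm and 628 RPKM in leaves <3 cm, and the reductase clust1630 at 518 RPKM in leaves 3–10 cm and 703 RPKM in leaves <3 cm. For clust1630 the other libraries gave 550.5 RPKM in leaves >10 cm, 6891 in trichomes, 229 in stem and 1032 in roots.

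**Figure D3:**
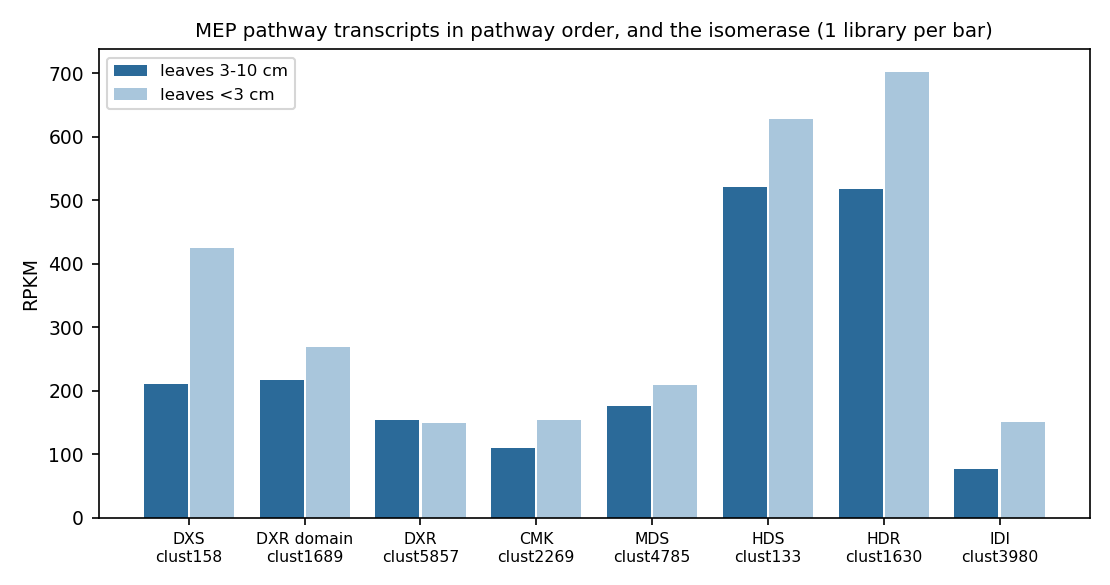
RPKM (vertical, from 0) of the MEP pathway transcripts in pathway order and of the isomerase (IDI), with leaves 3–10 cm as the dark bar and leaves <3 cm as the light bar, 1 library each and no error bars. DXS (clust158, 210.0 and 425 RPKM) and IDI (clust3980, 76.5 and 151 RPKM) show the widest relative gaps, and the bars of DXR (clust5857, 153 and 149.9 RPKM) are nearly level; CMK, MDS, HDS and HDR stand for clust2269, clust4785, clust133 and clust1630.

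Prenyl diphosphate synthases join the C5 units into longer chains. Both listed transcripts, whose closest hit is lavandulyl diphosphate synthase, were lower, as were 76 of the 85 listed. The ratio was −0.66 for clust3337, at 74.4 RPKM in leaves 3–10 cm and 118 RPKM in leaves <3 cm, and −0.47 for clust3861. The levels of clust3337 in the other libraries were 46.0 RPKM in leaves >10 cm, 2368 in trichomes, 54.3 in stem and 30.2 in roots.

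Methyltransferases, 8 of 9 of which were lower and 2 at least 2-fold lower, had a median ratio of −0.48 and a wide range. Both counts were near the shares over the list, 76 of 85 and 20%. The lowest was clust2791, closest to a caffeic acid 3-O-methyltransferase, an enzyme class that methylates phenolic acids. It was at 5.92 RPKM in leaves 3–10 cm and 41.8 RPKM in leaves <3 cm, which is 14.1% (interval 11.6 to 17.2). Trichomes held 1076 RPKM of clust2791, leaves >10 cm 0.697, stem 4.37 and roots 0.144. The other 3 transcripts with the same Methyltransf_2 domain, clust2472, clust2724 and clust2684, had ratios of −0.58, −0.48 and −0.46, so the domain alone did not mark the low value. The large clust15, of the cyclopropane fatty acid synthase family, had −0.60.

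Among the 3 with a Methyltransf_7 domain, the family that methylates carboxyl groups of small acids, SdPAOMT (−1.05) lay apart from its relatives. The most abundant methyltransferase, clust2514, was at 645 RPKM in leaves 3–10 cm and 817 RPKM in leaves <3 cm, a ratio of −0.34, with 487 RPKM in leaves >10 cm, 11344 in trichomes, 351 in stem and 8.67 in roots. The third, clust4450, had a ratio of −0.26. The only methyltransferase above 0 was clust4440, closest to an enzyme of phylloquinone synthesis in chloroplasts, at 197 RPKM in leaves 3–10 cm and 191 RPKM in leaves <3 cm, with an interval that included equality. It had 144 RPKM in leaves >10 cm, 1728 in trichomes, 123 in stem and 12.5 in roots.

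Dehydrogenases and reductases covered both directions. Of 9 transcripts 7 were lower, 2 at least 2-fold, and 2 were higher, with a median ratio of −0.37. The 2-fold count was near the 20% of the list, where 76 of 85 were lower. Besides SdPOHDH the low member was clust3515, closest to a phenylcoumaran benzylic ether reductase, an enzyme family of lignan metabolism. It was at 788 RPKM in leaves 3–10 cm and 1657 RPKM in leaves <3 cm, a ratio of −1.07, and at 246 in leaves >10 cm, 22701 in trichomes, 239 in stem and 27.6 in roots. In rank it was the third of the listed transcripts in leaves <3 cm and the eighth in leaves 3–10 cm. The short-chain dehydrogenase clust3054, whose closest hit is TIC 32 of the chloroplast import machinery, was at 243 RPKM in leaves 3–10 cm and 212 RPKM in leaves <3 cm, a ratio of 0.19. The other libraries held 273 RPKM of clust3054 in leaves >10 cm, 3012 in trichomes, 67.4 in stem and 1.91 in roots. An uncharacterized transcript with NmrA and epimerase domains, clust3478, was at 477 RPKM in leaves 3–10 cm and 436 RPKM in leaves <3 cm, a ratio of 0.13. It had 196 RPKM in leaves >10 cm, 1265 in trichomes, 146 in stem and 57.6 in roots.

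The aldehyde dehydrogenase clust1416, of a class that oxidizes aldehydes to acids, had a ratio of −0.54 at 129.8 RPKM in leaves 3–10 cm and 189 RPKM in leaves <3 cm. The pair named 2-alkenal reductase differed, with −0.53 for clust2675 and −0.10 for clust3274. A match to menthol dehydrogenase of mint, clust3165, had −0.37 at 83.7 RPKM in leaves 3–10 cm and 109 RPKM in leaves <3 cm. The peroxisomal enoyl-CoA reductase clust4242 had −0.32, near the upper quartile of the list.

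Lipid and cuticle transcripts held a pair of GDSL lipases on opposite sides of 0. GDSL lipases are esterases, some of which act on cutin and wax. The transcript clust2690, closest to the lipase APG, was at 604 RPKM in leaves 3–10 cm and 480.4 RPKM in leaves <3 cm, which is 126% (interval 122 to 129). It was at 210.3 RPKM in leaves >10 cm, 1572 in trichomes, 25.9 in stem and 3.67 in roots. The other GDSL lipase, clust2659, was at 313 RPKM in leaves 3–10 cm and 590.4 RPKM in leaves <3 cm, which is 53.0% (51.4 to 54.7), and at 35.3 in leaves >10 cm, 1377 in trichomes, 42.3 in stem and 3.65 in roots. Thus the order of the pair was opposite in the 2 leaf sizes. Of the other 3 members, the ketoacyl-ACP synthase clust1812, which elongates fatty acids in plastids, was at 52.3 RPKM in leaves 3–10 cm and 111 RPKM in leaves <3 cm, a ratio of −1.07. The fatty acyl-CoA reductase clust2942 and the wax protein ECERIFERUM 1-like clust458 had ratios of −0.67 and −0.53.

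Primary carbon and energy metabolism was the group nearest to 0, with a median ratio of −0.10. In this group 5 of 7 were lower and 0 at least 2-fold lower, against 76 of 85 and 20% over the list. The 2 higher ones are chloroplast proteins by their closest hits. Triosephosphate isomerase (clust2916), an enzyme of the Calvin cycle and glycolysis, was at 923 RPKM in leaves 3–10 cm and 834 RPKM in leaves <3 cm, a ratio of 0.15. Further values for clust2916 were 668 RPKM in leaves >10 cm, 1832 in trichomes, 451 in stem and 197 in roots. The phosphoenolpyruvate/phosphate translocator clust2305, which brings phosphoenolpyruvate into plastids, was at 74.8 RPKM in leaves 3–10 cm and 63.6 RPKM in leaves <3 cm, a ratio of 0.23. It was at 98.7 RPKM in leaves >10 cm, 1056 in trichomes, 4.47 in stem and 0.644 in roots.

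Of the other chloroplast enzymes, glucose-6-phosphate isomerase (clust628) had a ratio of −0.09 and fructose-bisphosphate aldolase (clust2220) had −0.76, at 383 RPKM in leaves 3–10 cm and 649 RPKM in leaves <3 cm. The 3 mitochondrial transcripts were all lower, with ratios of −0.37 for the ATP synthase beta subunit (clust1041), −0.11 for malate dehydrogenase (clust1810) and −0.10 for ATP synthase subunit O (clust4711). The beta subunit was at 862 RPKM in leaves 3–10 cm and 1115 RPKM in leaves <3 cm, and at 598 in leaves >10 cm, 1132 in trichomes, 914 in stem and 774 in roots, so that its trichome level was close to its young-leaf level.

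These 3 mitochondrial transcripts serve many cell types, but they passed the same choice as the rest of the list and are not an independent reference. Scaling both leaf libraries to their median ratio, that of clust1810, raised the ratios by up to 0.11 on the log2 scale. The rise was less for scarce transcripts because of the added 1 RPKM. Relative to the 3 mitochondrial transcripts the median of the list was −0.45. On this scaling 70 transcripts were lower instead of 76, and 9 instead of 17 were at least 2-fold lower. The transcripts no longer 2-fold lower were SdPAOMT, clust70, clust1093, clust158, clust1812, clust2795, clust3515 and clust4655, and all of them except clust3515 also missed the line with a pseudocount of 10 RPKM. The sign turned for SdSaS (clust1265), clust3274, clust4711, clust628 and the nucleoside diphosphate kinase clust5193, and the ratio of clust1810 itself became 0 by construction. The median of the primary carbon group is the ratio of clust4711, which is among the 3 used for scaling, so its value of 0.013 follows from the choice of those transcripts.

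Antioxidant enzymes were near the upper quartile of the list. The ratio was −0.35 for the CuZn superoxide dismutase clust5995, at 942 RPKM in leaves 3–10 cm and 1203 RPKM in leaves <3 cm. In other tissues clust5995 reached 622 RPKM in leaves >10 cm, 4157 in trichomes, 1253 in stem and 908 in roots. Peroxiredoxin (clust5140) had −0.43. Glutathione peroxidase (clust5293), which reduces lipid peroxides, was at 400.1 RPKM in leaves 3–10 cm and 387 RPKM in leaves <3 cm, with an interval that included equality, and at 386 in leaves >10 cm, 5566 in trichomes, 282 in stem and 249.7 in roots. The 3 leaf libraries gave this transcript nearly the same level.

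All 3 acyltransferases were lower, as were 76 of the 85 listed, with a median ratio of −0.35. The highest in leaves, clust1946, closest to an alcohol acyltransferase of lavender, was at 259.5 RPKM in leaves 3–10 cm and 432 RPKM in leaves <3 cm, a ratio of −0.73, with 113 RPKM in leaves >10 cm, 4050.4 in trichomes, 102 in stem and 4.86 in roots. The others, clust1854 and clust5317, had −0.35 and −0.16. Carotenoid cleavage dioxygenases, which cut carotenoids into volatile or signalling fragments, were both lower, as was most of the list. The ratio was −0.43 for type 1 (clust1111), at 119 RPKM in leaves 3–10 cm and 161 RPKM in leaves <3 cm, and −0.24 for type 4 (clust976). Type 1 had 91.5 RPKM in leaves >10 cm, 1215 in trichomes, 51.0 in stem and 6.86 in roots.

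A pair of dehydration-responsive proteins was lower to a like degree. The BURP domain protein clust2906 was at 914 RPKM in leaves 3–10 cm and 1569.6 RPKM in leaves <3 cm, a ratio of −0.78, and at 1156 in leaves >10 cm, 4303 in trichomes, 1261 in stem and 516 in roots. The RD22-like clust2665 was at 107 RPKM in leaves 3–10 cm and 196 RPKM in leaves <3 cm, a ratio of −0.86. Although the early ratios were similar, leaves >10 cm held only 24.1 RPKM of clust2665.

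The lowest ratios of all belonged to both transcripts matched to SIEVE ELEMENT OCCLUSION B. Proteins of this family are known from phloem, where they form the filaments that can plug sieve tubes, and neither transcript had a Pfam domain in the table. The first, clust226, was at 69.2 RPKM in leaves 3–10 cm and 625 RPKM in leaves <3 cm, which is 11.1% (interval 10.6 to 11.5), a ratio of −3.16. Its other levels were 6.24 RPKM in leaves >10 cm, 1467 in trichomes, 9.33 in stem and 1.22 in roots. The second, clust219, was at 6.16 RPKM in leaves 3–10 cm and 54.5 RPKM in leaves <3 cm, which is 11.3% (9.63 to 13.2), a ratio of −2.96. Trichomes held 1431 RPKM of clust219, leaves >10 cm 0.752, stem 0.794 and roots 1.88. The pair had nearly the same level in trichomes and nearly the same leaf ratio, while in leaves <3 cm clust226 was far above clust219.

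Further low values came from the 10 transcripts placed in no group, 4 of which were at least 2-fold lower, against 20% of the list. A serine carboxypeptidase-like protein, clust1559, of a family that includes acyltransferases of secondary metabolism, was at 7.66 RPKM in leaves 3–10 cm and 33.3 RPKM in leaves <3 cm, a ratio of −1.98. It was at 0.280 RPKM in leaves >10 cm, 1004 in trichomes, 1.35 in stem and 0.406 in roots. The transcript clust3441 has no Pfam domain, and its closest hit is a partial uncharacterized protein of an animal, *Limulus polyphemus*, so its identity is doubtful. It was at 12.2 RPKM in leaves 3–10 cm and 49.4 RPKM in leaves <3 cm, a ratio of −1.93. Its remaining levels were 0.365 RPKM in leaves >10 cm, 1838 in trichomes, 3.14 in stem and 0.353 in roots. Values below 1 RPKM in leaves >10 cm rest on few fragments, down to 3. The closest hit of clust4655 is an ESR2-like ethylene-responsive transcription factor, but it has no Pfam domain either, so its identity is also uncertain. The level of clust4655 was 29.6 RPKM in leaves 3–10 cm and 64.2 RPKM in leaves <3 cm, a ratio of −1.09. The membrane protein clust2795 completed the 4 at −1.01.

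The remaining ungrouped transcripts were lower by less than 2-fold. The ABC transporter clust10, of the pleiotropic drug resistance type that exports lipophilic compounds, had a ratio of −0.62 at 117 RPKM in leaves 3–10 cm and 179.7 RPKM in leaves <3 cm. Chalcone–flavanone isomerase (clust6044), an early enzyme of flavonoid synthesis, had −0.55. The most abundant of them in leaves <3 cm, the epoxide hydrolase clust3307, was at 373 RPKM in leaves 3–10 cm and 524 RPKM in leaves <3 cm, with 362 RPKM in leaves >10 cm, 3172 in trichomes, 332 in stem and 487 in roots. The others were the steroid-binding protein clust5333 at −0.73, the phenazine biosynthesis-like clust4414 at −0.38 and the nucleoside diphosphate kinase clust5193, a chloroplast enzyme by its closest hit, at −0.10. Over the 6 transcripts with no Pfam domain in the table, 4 were at least 2-fold lower, against 20% of the list, and the median ratio was −1.51. They include the SIEVE ELEMENT OCCLUSION B pair, and also the short P450 fragment clust5902, at 68.7 RPKM in leaves 3–10 cm and 126 RPKM in leaves <3 cm.

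**Figure D4:**
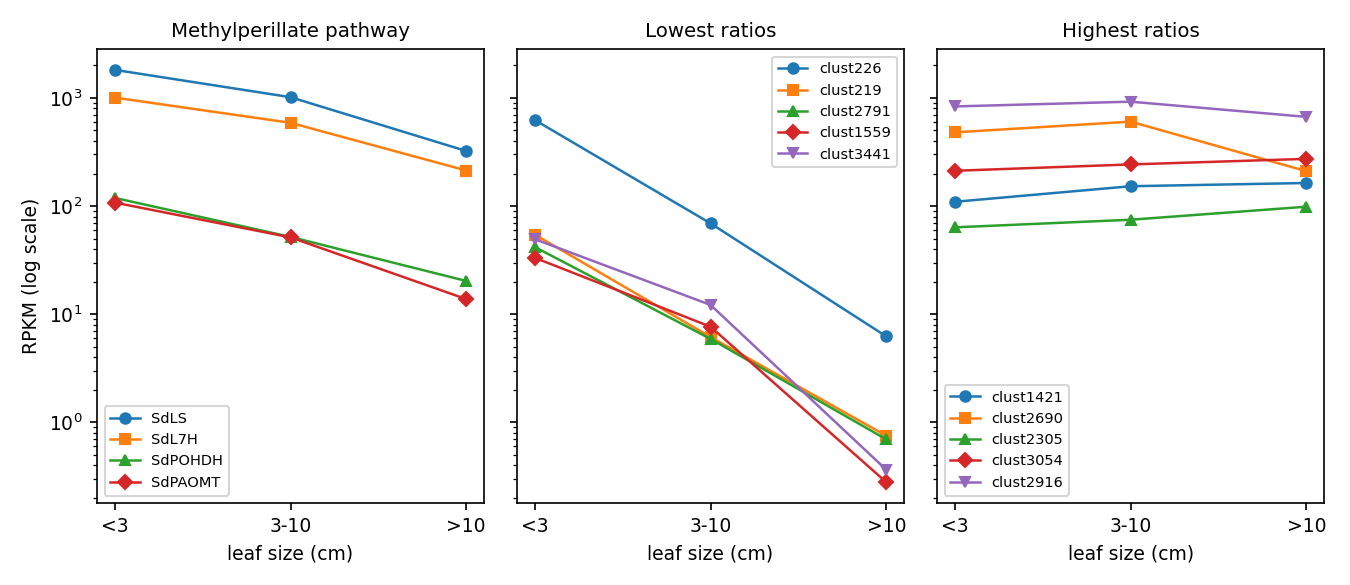
RPKM (vertical, log scale) in leaves <3 cm, 3–10 cm and >10 cm (horizontal, in order of size), 1 library each, for the methylperillate route (left), the 5 lowest ratios (middle) and 5 of the 9 ratios above 0 (right). The middle lines are the steepest, clust226 being at 625, 69.2 and 6.24 RPKM in leaves of increasing size, while on the right clust2690 and clust2916 peak at 3–10 cm, at 604 and 923 RPKM.

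The later step in leaf size, leaves >10 cm over leaves 3–10 cm, shares the library of leaves 3–10 cm with the early one, and the values are given side by side only. At the later step 42 transcripts were at least 2-fold lower, against 17 at the early step, and the medians were −0.98 at the later and −0.56 at the early step. For the limonene synthase cluster clust603 the ratios were −1.65 at the later and −0.84 at the early step. For the germacrene D synthase clust1129 they were −0.39 at the later and −0.70 at the early step. The MEP group had a median of 0.18 at the later step and −0.37 at the early step.

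The early ratio varied with the ratio of trichomes over stem, a quantity from libraries that the leaf ratio does not use. Over the 85 transcripts, Pearson's r between the leaf ratio and the log2 ratio of trichomes over stem was −0.54 and Spearman's rho was −0.60. This is a description across transcripts, which are not independent replicates and which share their coding length and their mapping between the libraries. The authors' choice of transcripts used stem and trichomes along with both leaf libraries. It also set a floor in trichomes, where the lowest listed level was 1004 RPKM and the highest 22701. In stem the levels ran from 0.794 to 1261 RPKM, so a high ratio of trichomes over stem can reflect a low stem level. The choice can therefore shape this relation, and its part was not tested. With the log2 ratio of trichomes over roots, r was −0.27 and rho −0.29, nearer to 0 than with stem. With the log2 level in trichomes itself, r was −0.04 and rho −0.19, and with coding length r was −0.24 and rho −0.27. Ordered by trichomes over stem, the 22 lowest transcripts had a median leaf ratio of −0.28 with 0 at least 2-fold lower. The following sets of 21 each had −0.44 with 0, −0.72 with 5 and, for the highest 21, −1.05 with 12. Over the whole list 17 of 85, or 20%, were at least 2-fold lower. Within the highest set clust2305, at 0.23, and clust5317, at −0.16, had the highest ratios.

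**Figure D5:**
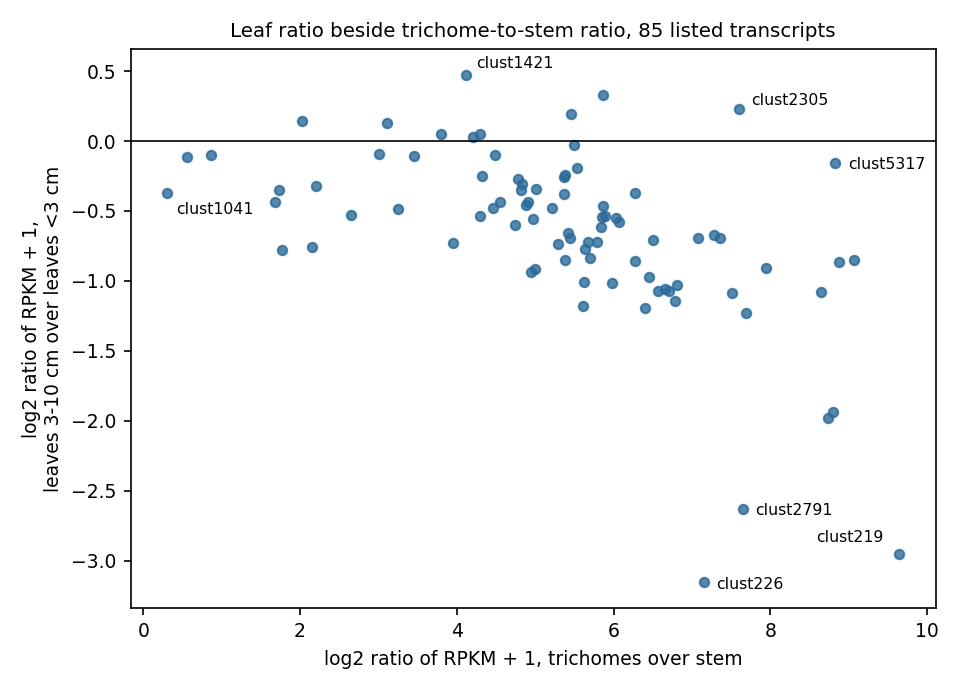
The log2 ratio of RPKM + 1 of leaves 3–10 cm over leaves <3 cm (vertical) against that of trichomes over stem (horizontal), 1 point per listed transcript (n = 85, 1 library per tissue). Points lie lower toward the right (Spearman's rho −0.60), with clust2305 (0.23) and clust5317 (−0.16) above the other points of the highest 21.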

How the data were processed

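The authors sequenced stranded libraries of 6 tissues on a HiSeq2500 instrument (CASAVA 1.8.1, also in the submitters' processing notes) and used CLC Genomics Workbench to map the pairs, on both strands and with several places allowed per read, to consensus reading frames (600 nt or longer) built from PacBio reads of trichomes. Merged or similar family members can share reads. The authors deposited RPKM values, with blank rows and with correlations to SdLS and to metabolite levels, which were not used. RPKM columns of other samples numbered 0, and no genome was used.

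The deposited RPKM entered without a filter, and 1 RPKM was added before the log2, so ratios of scarce transcripts are understated. A value of −1 or lower was counted as at least 2-fold lower. Transcripts were placed in 13 gene groups by hand from the BLAST and Pfam columns. The members and groups were chosen with earlier results of these data known. By rule every transcript could be named with both leaf values, and all 6 libraries were given for the characterised transcripts, the 8 lowest ratios, every ratio above 0 and the most abundant transcript of each group in leaves <3 cm.

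Fragments were recovered as whole numbers from RPKM, with coding lengths (609 to 2961 nt) and library totals of 3314347 to 19415968. Of 510 values 510 were whole within 0.001 fragments. Totals and lengths were searched for on that condition, so this count is no independent check. Tested on simulated data (3 tables of 85 transcripts), the search found 100% of totals and 99.2% of transcripts. If the true totals are multiples of these, the intervals (exact binomial, 95%) are wider than needed. Alternatives were pseudocounts of 0.1 and 10, a mean of at least 50 RPKM, rescaling to 3 mitochondrial transcripts, a 1.5-fold step and groups by Pfam domain alone. The scripts ran in Python 3.11.15 with pandas 2.3.3, matplotlib 3.10.9, scipy 1.17.1 and numpy 2.4.6.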

Additional observations from a re-analysis of the deposited data

How the results depend on the processing

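The count of transcripts at least 2-fold lower in leaves 3–10 cm was 17, and it was 10 with a pseudocount of 10 RPKM, 9 after rescaling to the 3 mitochondrial transcripts, 12 with a mean of at least 50 RPKM and 41 at a 1.5-fold step. A pseudocount of 10 RPKM also gave the sieve element occlusion pair a median of −2.50 in place of −3.06, since by construction a larger pseudocount draws low values toward 0. Rescaling raises the ratios by construction, by up to 0.11. It gave medians of −0.45 over the list, −0.72 for terpene synthases, −0.63 for P450s, −0.36 for methyltransferases, −0.26 for the MEP pathway, −0.45 for prenyl diphosphate synthases, −0.26 for dehydrogenases and reductases, −0.23 for acyltransferases, −0.22 for carotenoid cleavage dioxygenases, −0.24 for antioxidant enzymes, 0.013 for primary carbon and energy metabolism and −0.70 for the BURP and RD22-like pair. Of these medians only that of primary carbon changed its sign, and it is the ratio of clust4711, 1 of the transcripts used for scaling. A pseudocount of 10 moved 13 of 85 single ratios beyond their counting error and a pseudocount of 0.1 moved 0, and a mean of at least 50 RPKM left 80 transcripts, removing clust219, clust2791, clust1559, clust3441 and clust4655, all at least 2-fold lower. No library could be left out, since each leaf size has 1. The spread between plants, leaves and preparations is unknown for every value, and the counting intervals do not cover it. No paired analysis was possible because each group has a single library.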
